A study of Mus musculus with 78 samples.

Results

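The regions described are 1 kb stretches of the mouse autosomes with an intermediate number of CpGs, 21 to 40, read in E6.5 epiblast that lacks both Tet1 and Tet2. Chromosomes were divided into consecutive bins of 1 kb, and a bin was kept when the deposited table listed 21 to 40 CpGs in it and 5 or more of those had reads. This left 86764 bins of the 89705 with such a CpG number, out of 2365732 autosomal bins with any CpG. They made up 3.67% of those bins and held 11.1% of the autosomal CpGs, 2261777 in number. No measured methylation entered the choice. The study followed DNA methylation, RNA and chromatin folding through early mouse development. Its 78 samples include 3 STEM-seq libraries of Tet1/2 double knockout E6.5 epiblast, and STEM-seq is a whole-genome bisulfite sequencing method for small numbers of cells. Bisulfite sequencing reads 5-methylcytosine and 5-hydroxymethylcytosine alike as methylated.

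The knockout embryos came from intercrosses of Tet1+/- Tet2-/- mice, whose deletion lines are B6;129S4-Tet1tm1.1Jae/J and B6;129S-Tet2tm1.1Iaai/J, per the labels' protocols. The strain label of the libraries reads C57BL/6N x DBA, and the labels do not say how these lines relate to it. The deletions are germline, so every embryonic and extraembryonic cell carried them, and mothers also lacked Tet2. Genotypes were read from the extraembryonic part of each embryo and DNA was taken from the embryonic epiblast. The labels do not give the number of embryos pooled. The authors merged the 3 libraries into 1 table, so there is no spread between replicates, and no test between conditions was possible. Spread is given instead over the 19 autosomes and the 2 DNA strands, and 95% Wilson intervals cover counting error only. Where a summed level is printed without its interval, that interval was narrower than the range over autosomes. Methylation of embryos without the deletions is not analysed here, so none of the levels can be read as an effect of losing Tet1 and Tet2. Expression comes from 2 RNA-seq libraries of E6.5 epiblast of C57BL/6N mothers and DBA/2N fathers, for which no deletion is named.

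A CpG is a cytosine followed by a guanine, and it is the main site of DNA methylation in mammals. Most of the genome is poor in CpGs and heavily methylated. CpG islands, which are dense in CpGs and often lie at gene starts, mostly stay free of methylation, and the flank where an island gives way to methylated DNA is called its shore. Dnmt3a and Dnmt3b place new methylation around implantation, and Tet enzymes oxidise 5-methylcytosine as a step toward its removal. Stretches of intermediate CpG content are known to include the weaker CpG promoters, many of them used by germline genes that are silenced by methylation in the embryo. In the E6.5 epiblast RNA, Dnmt3a stood at 65.1 and 71.8 FPKM, Dnmt3b at 181 and 168, Tet1 at 8.82 and 6.88, Tet2 at 0.0936 and 0.0550, and Tet3 at 1.22 and 1.42. FPKM are fragment counts scaled by transcript length and by the mapped total of the library.

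Promoters of 6 genes with a start in these bins show the range of levels found among such starts. Each sequence is the 250 bases before the gene's start, from RefSeq (GRCm38.p6), read 5′ to 3′ along the gene, with CpGs in capitals. The first pair is unmethylated in the knockout epiblast, the third is an imprinted gene at an intermediate level, and the last 3 are germline genes with almost every read methylated.
Otx2: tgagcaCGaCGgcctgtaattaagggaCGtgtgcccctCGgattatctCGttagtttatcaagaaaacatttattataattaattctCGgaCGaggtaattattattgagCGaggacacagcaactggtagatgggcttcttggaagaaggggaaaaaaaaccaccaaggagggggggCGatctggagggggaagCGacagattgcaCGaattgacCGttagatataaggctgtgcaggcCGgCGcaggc
Rpl4: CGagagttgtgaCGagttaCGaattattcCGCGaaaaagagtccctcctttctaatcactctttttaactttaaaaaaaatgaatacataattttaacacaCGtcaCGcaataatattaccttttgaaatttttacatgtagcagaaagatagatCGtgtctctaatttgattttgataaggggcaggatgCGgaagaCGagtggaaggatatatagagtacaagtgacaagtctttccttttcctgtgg
Mest: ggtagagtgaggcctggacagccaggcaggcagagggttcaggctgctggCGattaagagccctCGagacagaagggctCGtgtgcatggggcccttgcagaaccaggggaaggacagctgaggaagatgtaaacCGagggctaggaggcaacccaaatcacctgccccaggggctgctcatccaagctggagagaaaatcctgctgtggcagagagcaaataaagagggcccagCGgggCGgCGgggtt
Tdrd9: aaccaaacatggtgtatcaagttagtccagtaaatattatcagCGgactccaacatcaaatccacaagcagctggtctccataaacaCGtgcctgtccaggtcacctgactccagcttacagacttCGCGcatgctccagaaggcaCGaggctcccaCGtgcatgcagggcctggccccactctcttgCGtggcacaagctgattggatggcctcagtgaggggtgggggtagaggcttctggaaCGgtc
Sycp1: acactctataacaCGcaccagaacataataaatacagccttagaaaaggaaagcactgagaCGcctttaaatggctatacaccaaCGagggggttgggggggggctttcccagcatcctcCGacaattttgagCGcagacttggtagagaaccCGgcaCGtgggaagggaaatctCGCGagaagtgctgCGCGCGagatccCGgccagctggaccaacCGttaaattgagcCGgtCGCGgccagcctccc
Tex101: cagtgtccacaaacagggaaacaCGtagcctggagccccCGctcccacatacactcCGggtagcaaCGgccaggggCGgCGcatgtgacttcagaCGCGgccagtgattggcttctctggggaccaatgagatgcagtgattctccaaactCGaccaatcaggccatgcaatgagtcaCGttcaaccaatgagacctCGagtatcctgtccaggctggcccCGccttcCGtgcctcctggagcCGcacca
CpGs number 14 in the Otx2 stretch, 10 in Rpl4, 7 in Mest, 8 in Tdrd9, 17 in Sycp1 and 14 in Tex101. Otx2 had 0 methylated of 34 reads over these bases and Rpl4 0 of 22, which allows levels of up to 8.82% and 13.6%. Mest had 5 of 14 (95% Wilson interval 16.3 to 61.2%). The germline stretches had 24 of 25 reads methylated at Tdrd9 (80.5 to 99.3%), 25 of 26 at Sycp1 (81.1 to 99.3%) and 15 of 16 at Tex101 (71.7 to 98.9%). Otx2 and Tex101 thus held equal CpG numbers in these 250 bases at opposite ends of the scale. The 1 kb bins with these starts held 40 and 26 CpGs. Places of these genes on mm9, the build of the files, are given with their values further on.

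Depth was thin and uneven. The bins held 4709984 reads, or 2.08 per listed CpG against 2.34 over all autosomes, with a median of 43 reads per bin. Of their CpGs, 30.5% had no read. A small number of bins were very deep: 47 bins with over 10 reads per CpG held 15.3% of all reads, and 1 bin on chromosome 9 held 98618. Reads per CpG were 7.99 on chromosome 9 and lay between 1.65 and 1.84 on the other autosomes. Without chromosome 9, a setting chosen after seeing the data, the differences by CpG number and by distance given next moved by less than their counting intervals.

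Most of these bins were heavily methylated, and a minority were low. Summed over all reads, 73.6% were methylated, and the median bin stood at 85.4% (quartiles 68.2 and 92.5%). The autosomes ranged from 67.6% (chromosome 11) to 77.5% (chromosome 9). Of the bins, 6604 (7.61%) were under 20%, called low here, 25538 (29.4%) were between 20 and 80%, and 54622 (63.0%) were at 80% or over, called high. Over all 1379746 autosomal bins with 5 or more covered CpGs, 1.83% were low and 74.7% were high. Bins of 1 to 20 CpGs were low in 0.312% of cases, those of 41 to 60 in 55.6% and those of over 60 in 88.7%. Summed levels of those classes were 85.2%, 24.7% and 7.88%. The 21 to 40 class thus lay on the step between methylated and unmethylated DNA. Single CpGs gave a like picture: of 189063 with 5 or more reads, 12.9% were under 20%, 25.3% in between and 61.7% at 80% or over.

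Methylation was lower the more CpGs a bin held. At 21 CpGs the summed level was 81.5% (range over autosomes 79.6 to 84.3%) and 2.32% of 14590 bins were low. At 25 it was 76.9%, at 30 it was 67.1% and at 35 it was 54.0%. At 40 CpGs it was 41.2% (28.1 to 53.9%) and 34.95% of 947 bins were low. The median bin held up longer than the sum, at 87.5% for 21 CpGs, 83.3% for 30 and 74.8% for 35, and reached 44.6% at 40. At 40 CpGs, 33.7% of bins were still high, so both extremes were well filled, and the quartiles were 11.5 and 86.5%. Bins of 36 to 40 CpGs were below those of 21 to 25 on 19 of 19 autosomes. Reads per CpG went from 2.46 at 21 CpGs to 1.42 at 40, and the part of depth in the level was not tested. Just outside the range, the summed level was 78.6% at 19 CpGs, 81.5% at 20, 35.5% at 41 and 35.8% at 42. At 19 CpGs the autosomes ranged from 62.8 to 85.5%, and the mean of bins was 83.6%, against 82.7% at 20.

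**Figure D1:**
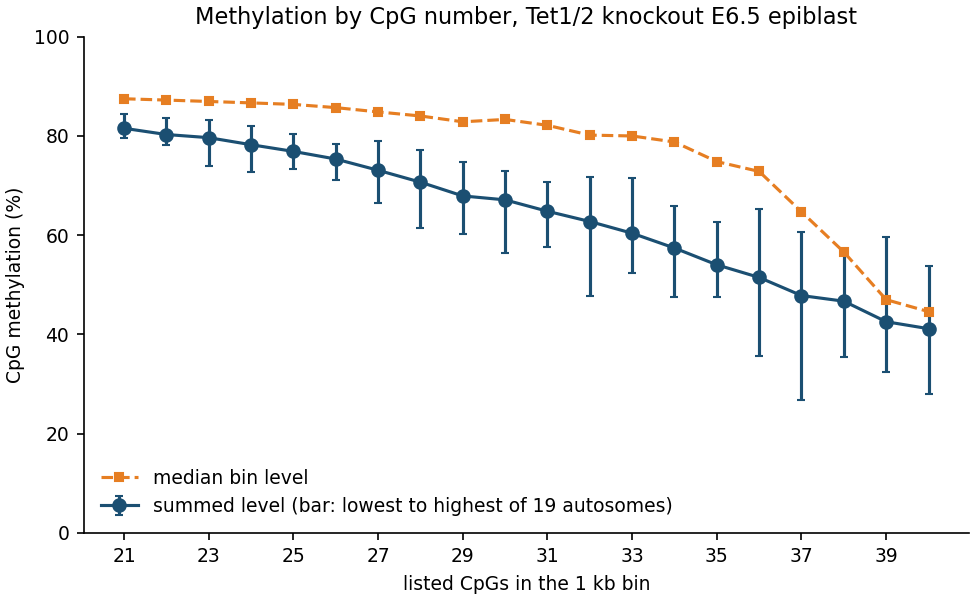
CpG methylation (%) in bins of each CpG number from 21 to 40, as the level summed over reads (circles, bars from the lowest to the highest of 19 autosomes) and the median bin (squares). The summed level goes from 81.5% at 21 CpGs to 41.2% at 40, and the median stays above it at every number.

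Bins close to dense DNA were lower than bins far from it. Dense bins are those of over 60 CpGs, a content typical of CpG islands. The 4865 bins directly beside a dense bin stood at 30.5% (range over autosomes 26.1 to 36.4%), with 36.3% of them low. At 2 kb the summed level was 50.98%. It was 61.9% at 3 to 5 kb, 69.5% at 6 to 10 kb, 72.8% at 11 to 20 kb, 75.4% at 21 to 50 kb and 76.7% at 51 to 100 kb. The 32538 bins over 100 kb away stood at 79.1% (74.8 to 81.4%), with 3.62% of them low. Adjacent bins were below bins over 100 kb away on 19 of 19 autosomes. The change over distance was steepest within the first few kilobases and small beyond 20 kb.

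CpG number and distance moved together, so each was set against the other. Bins of 36 to 40 CpGs were adjacent to dense DNA in 13.97% of cases, and those of 21 to 25 in 3.41%. Within bins of 21 to 25 CpGs, the level was 41.01% beside a dense bin and 81.3% over 100 kb away. Within bins of 36 to 40 CpGs it was 20.4% and 62.5%. At each of the 8 distances the order by CpG number was the same, from 21 to 25 at the top to 36 to 40 at the bottom. The gap between those 2 classes was also present on 19 of 19 autosomes over 100 kb from dense DNA. It was widest at 3 to 5 kb, where bins of 21 to 25 CpGs stood at 74.6% and those of 36 to 40 at 31.6%. Bins poorer in CpGs had come close to their far level by 6 to 10 kb, at 78.2%, while those of 36 to 40 CpGs stood at 38.2% there and at 48.0% still at 21 to 50 kb.

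**Figure D2:**
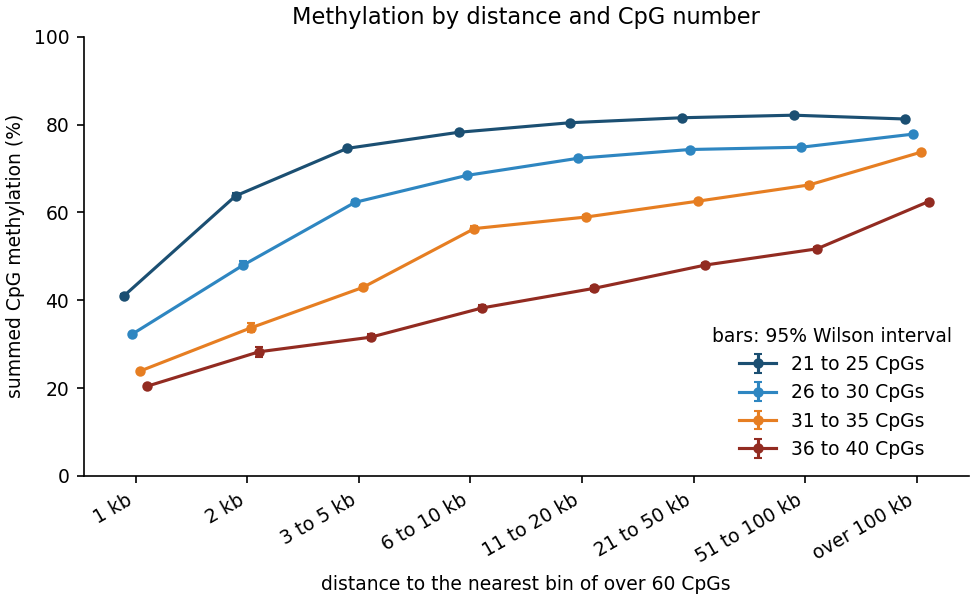
Summed CpG methylation (%) against distance to the nearest bin of over 60 CpGs, in 4 classes of CpG number (bars, 95% Wilson interval). Beside dense DNA the classes lie between 20.4 and 41.01%, and the 36 to 40 class is the lowest at every distance.

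The level of the dense neighbour went with that of the bin. Where the adjacent dense bin was itself under 20%, 4386 bins stood at 28.8% (range over autosomes 24.5 to 33.7%). With a dense bin of 20 to under 80%, 389 bins stood at 46.4%. With a dense bin of 80% or over, 61 bins stood at 85.6% (95% Wilson interval 83.9 to 87.2%), and none of the 61 was low. Those 61 bins had 1.00 read per CpG, and dense bins are rarely methylated, so they are few and thinly read. The same order was present in each of the 4 classes of CpG number. In bins of 36 to 40 CpGs the levels were 18.9% (742 bins), 31.8% (81 bins) and 79.2% (8 bins). At over 100 kb the same 3 groups stood at 79.0%, 79.8% and 80.5%, within the range over autosomes of each. A dense bin on the lower or the higher coordinate side gave 30.9% and 30.2%, and the 36 bins between 2 dense bins stood at 23.3% (21.2 to 25.5%).

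Inside adjacent bins the level climbed from the shared edge outward. Beside an unmethylated dense bin, CpGs in the first 100 bp stood at 7.31% (95% Wilson interval 7.06 to 7.57%). The level passed through 15.9% in the third step of 100 bp, 31.4% in the fifth and 48.3% in the seventh. In the last 100 bp it was 61.2% (60.4 to 61.9%). Beside dense bins of 80% or over, no such climb was present: the first 100 bp stood at 88.7% (84.8 to 91.7%) and the last at 90.3% (83.8 to 94.4%). Counts of CpGs also thinned outward, from 27508 in the first 100 bp to 6611 in the last, so distance and CpG crowding move together inside the bin.

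**Figure D3:**
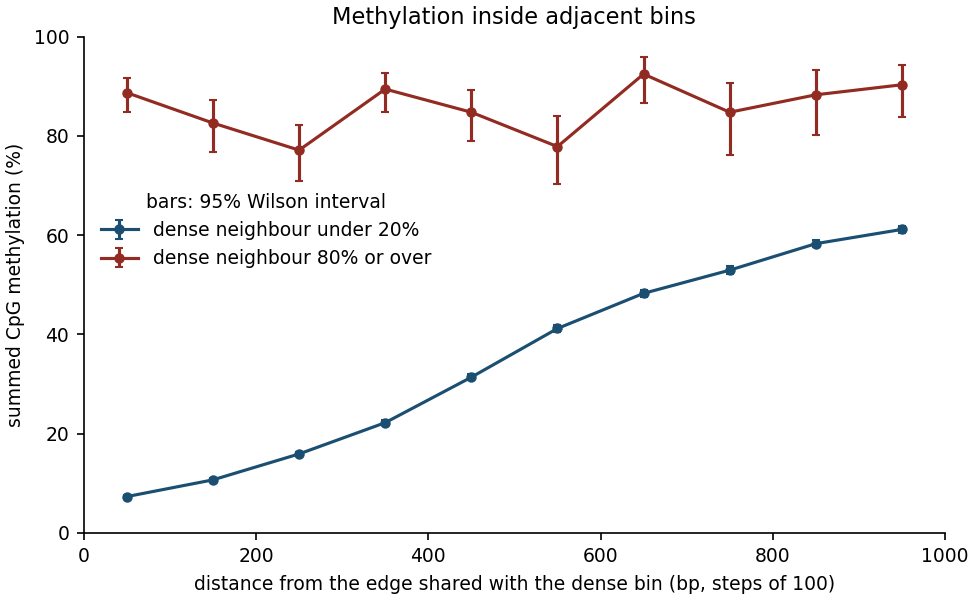
Summed CpG methylation (%) in steps of 100 bp from the edge shared with a dense bin, for bins with such a neighbour on 1 side (bars, 95% Wilson interval). Beside unmethylated dense bins the level goes from 7.31 to 61.2%, and beside methylated ones the steps lie between 77.1 and 92.5%.

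Many single bins held such a boundary. Among 3319 adjacent bins with 10 or more reads in the 500 bp nearer to the dense bin and in the 500 bp farther from it, the near parts summed to 17.6% and the far parts to 51.9%. The near part was lower in 2848 (85.8%) and higher in 371 (11.2%). In 346 bins (10.4%) the near part was under 20% and the far part at 80% or over. The reverse was found in 0 of 3319, which allows a share of up to 0.0904%. In 557 bins both parts were low and in 89 both were high. The level of each of those 346 bins averages a low and a high part.

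Low bins lay both beside dense DNA and far from it. Of the 6604 low bins, 26.7% were adjacent to dense DNA, against 5.61% of all bins of 21 to 40 CpGs, and 53.1% (3509) lay over 10 kb from it, against 84.1% of all bins of 21 to 40 CpGs. Of those 3509, 24.1% had a bin of 41 to 60 CpGs as a direct neighbour, against 2.55% of the 49450 high bins that far out. Over 10 kb from dense DNA, bins beside one of 41 to 60 CpGs stood at 46.8% and bins over 100 kb from one at 80.3%. On 18 autosomes, 3419 low bins over 10 kb from dense DNA formed 2677 runs of 1 bin, 284 of 2 and 50 of 3 or more, counting low bins of 21 to 40 CpGs alone. Of the runs of 1 bin, 780 had a bin of 41 to 60 CpGs as a direct neighbour and 1897 did not. The longest run was 7 bins on mm9, chr6:51118001-51125000, with 228 CpGs and 41 of 438 reads methylated (9.36%, 95% Wilson interval 6.98 to 12.5%), 96 kb from the nearest dense bin. A run of 6 bins lay at chr13:36815001-36821000 (11 of 275 reads, 4.00%, 2.25 to 7.02%), 606 kb from dense DNA. Another of 5 bins lay at chr1:78196001-78201000 (15 of 395 reads, 3.80%, 2.31 to 6.17%). These runs are stretches of several kilobases at a low level that hold no bin of over 60 CpGs. Genes at these runs are not given, since only starts placed by their CpG spacing were used here.

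How closely CpGs stood inside a bin went with its level too. Crowding was taken as the largest number of CpGs in any 200 bp of the bin. In bins of 36 to 40 CpGs, a crowding of 10 to 14 went with 55.8% (2224 bins), 15 to 19 with 46.3% (2805 bins) and 20 or more with 27.7% (969 bins). Over 100 kb from dense DNA the same 3 groups stood at 67.9%, 65.1% and 37.2%. In bins of 21 to 25 CpGs the level was 80.9% at a crowding of under 10 and 67.5% at 15 to 19. Directly beside dense DNA, bins of 36 to 40 CpGs showed no such order beyond the range over autosomes, at 20.96% (6.73 to 60.3%), 20.4% (13.0 to 36.7%) and 19.9% (9.68 to 31.1%). Bins of 21 to 25 CpGs there stood at 45.98% under 10, 37.8% at 10 to 14 and 28.3% at 15 to 19.

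Strands agreed closely. Watson reads gave 74.1% and Crick reads 73.0%. In 26461 bins with 20 or more reads on each strand, the 2 levels had a Pearson r of 0.866 and differed by a median of 8.35 points. These values come from the same merged libraries, so r is given as a description. Of those bins 2330 were low on both strands, and 21 were low on 1 strand and high on the other.

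Bins with a gene start were lower than the others. A RefSeq promoter was placed on the table by matching the spacing of its CpGs to the listed mm9 positions, which needs no conversion between builds. Of 18541 promoters with 6 or more CpGs, 18272 (98.5%) had exactly 1 match, every one on the chromosome that RefSeq names. Another 14310 of all 32851 promoters had under 6 CpGs, so 55.6% of all promoters had 1 match. Starts fell in 3681 of the bins, 4168 starts of 3748 genes. Bins with a placed start summed to 36.5% (range over 18 autosomes 26.6 to 46.0%), and 35.6% of them were low and 19.4% high. Over all autosomal bins with a placed start, 60.9% were low and 14.8% high, so the share of low starts in these bins lay below that background and the share of high starts above it. Bins with no placed start summed to 75.2%, and 6.37% were low. A start was present in 19.8% of low bins, 6.496% of middle bins and 1.31% of high bins. Over 10 kb from dense DNA the shares were 27.6%, 6.28% and 1.31%. Promoters with under 6 CpGs could not be placed, and placed starts lay on 18 of the 19 autosomes. The shares of low, middle and high bins that hold a start are thus lower bounds. Low and high shares among bins with a start, and their levels, cover placed starts alone, without the promoters poorest in CpGs. Bins of the remaining autosome count as bins with no placed start.

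Bins with a start were below the others near dense DNA and far from it. Beside dense DNA they stood at 22.6% (448 bins) and over 100 kb away at 40.1% (1077 bins), against 31.4% and 80.2% without a start. With a start, bins of 21 to 25 CpGs stood at 58.8%, 26 to 30 at 43.1%, 31 to 35 at 26.5% and 36 to 40 at 18.5%. Without one, the same classes stood at 80.2%, 73.0%, 63.8% and 51.9%. Both kinds were lower at higher CpG number.

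Germline genes in these bins were methylated at their starts. The list holds 40 genes of meiosis, the piRNA pathway and the testis that are known to be silenced by DNA methylation, and 9 had a start in such a bin with 20 or more reads. Of the 9, 7 were at 80% or over, 2 were in between and 0 were low, with a range of 76.2 to 94.1%. Over all bins with a placed start, 19.4% were high and 35.6% low. Tdrd9, a piRNA pathway helicase, had 70 of 79 reads methylated (88.6%, 95% Wilson interval 79.7 to 93.9%) at chr12:113209001-113210000. Sycp1, a protein of the synaptonemal complex, had 51 of 56 (91.1%, 80.7 to 96.1%) at chr3:102740001-102741000. That bin lies directly beside a dense bin, where 6.15% of bins were high. Tex101, a testis surface protein gene, had 47 of 50 (94.0%, 83.8 to 97.9%) at chr7:25457001-25458000. Gtsf1, a piRNA factor, had 47 of 52 (90.4%, 79.4 to 95.8%), and Sohlh2, a germ cell transcription factor, had 50 of 58 (86.2%, 75.1 to 92.8%). In the 2 epiblast RNA libraries Tex101 was listed at 0 and 0 FPKM, Tdrd9 at 0.0407 and 0.0612, Sycp1 at 0.232 and 0.152, and Sohlh2 at 1.54 and 0.919. Gtsf1 was at 0 and 1.21 FPKM. Tex19.1, also among the 7 high starts, was expressed, and its values are given further on.

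Most starts of the formative and ribosomal protein lists were at the other end. Of the formative list, factors of the epiblast after implantation, 2 genes had starts in these bins. Otx2, a homeobox factor of the epiblast and later of the anterior brain, has 3 such starts between chr14:49282001 and chr14:49288000, all 216 to 221 kb from a dense bin. They had 1 of 92 reads methylated (1.09%, 95% Wilson interval 0.192 to 5.90%), 1 of 74 (1.35%, 0.239 to 7.27%) and 4 of 40 (10.0%, 3.96 to 23.1%). Tdgf1, the co-receptor of Nodal, had 1 of 51 at chr9:110848001-110849000 (1.961%, 0.347 to 10.3%). Otx2 was at 129 and 101 FPKM and Tdgf1 at 181 and 169 FPKM. Among ribosomal protein genes, 3 of 4 were low. Of all bins of 21 to 40 CpGs with a placed start, 35.6% were low, and lists of 2 and 4 genes say little beyond their members. Rpl4 had 0 of 101 reads methylated at chr9:64021001-64022000, which allows up to 2.97%, and 1546 and 1514 FPKM. Rps24 was the other one, at 32 of 85 (37.6%, 28.1 to 48.3%), while the 250 bases before its start had 0 of 18, which allows up to 16.7%. Ribosomal protein genes have many near-identical pseudogenes, so their FPKM are uncertain.

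Naive pluripotency genes, which are used in the blastocyst and shut down at implantation, were mixed. Tcl1, a cofactor of the Akt kinase, had 72 of 87 reads methylated (82.8%, 95% Wilson interval 73.5 to 89.3%) at chr12:106460001-106461000. Esrrb, an orphan nuclear receptor, had 35 of 50 (70.0%, 56.2 to 80.9%) at chr12:87702001-87703000. Zfp42, which encodes Rex1, had 12 of 46 (26.1%, 15.6 to 40.3%) at chr8:44392001-44393000. Their FPKM followed the reverse order: Tcl1 at 0.161 and 0.118, Esrrb at 0.164 and 0.229, and Zfp42 at 2.02 and 2.33. The list gives 3 genes, so the order is a description.

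Genes of other embryonic lineages spanned low and middle levels, and 2 genes of adult tissues were high. In the trophoblast list, 3 of 5 were low and 2 in between. Over all bins of 21 to 40 CpGs with a placed start, 35.6% were low and 45.1% in between. A list this short says little beyond its members. Tfap2a, a transcription factor of trophoblast and surface ectoderm, had 1 of 89 reads methylated at chr13:40830001-40831000 (1.12%, 95% Wilson interval 0.199 to 6.09%) with 0 and 0.0265 FPKM. Ascl2, a trophoblast factor, had 10 of 66 (15.2%, 8.44 to 25.7%) with 1.28 and 1.20 FPKM. Krt8, of the same list, had 10 of 71 (14.1%, 7.83 to 24.0%) with 8.20 and 9.98 FPKM. Elf5, a trophoblast factor known to be silenced by methylation in the embryo proper, had 37 of 54 (68.5%, 55.3 to 79.3%) at chr2:103264001-103265000. Dkk1, a Wnt antagonist of the anterior visceral endoderm, had 3 of 77 (3.90%, 1.33 to 10.8%) with 0.883 and 1.31 FPKM. Apob, an apolipoprotein gene, had 9 of 21 (42.9%, 24.5 to 63.5%). Tbx6, a factor of paraxial mesoderm, had 8 of 67 (11.9%, 6.18 to 21.8%), and Mesp2, of somite formation, had 39 of 61 (63.9%, 51.4 to 74.8%), both with under 1 FPKM. In the 250 bases before its start, Mesp2 had 14 of 14 (78.5 to 100%). Of 26 genes of adult tissues, 7 could be placed and 2 had a start in these bins. Both were high, against 19.4% of all bins of 21 to 40 CpGs with a placed start, and 2 genes describe only themselves. Krt5, an epidermal keratin, had 38 of 45 (84.4%, 71.2 to 92.3%). Cd79a, of the B cell receptor, had 45 of 56 (80.4%, 68.2 to 88.7%), but 8 of 14 (57.1%, 32.6 to 78.6%) in the 250 bases before its start.

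Imprinted genes are expressed from 1 parental copy. Of 6, 4 lay between 20 and 80%, 2 were low and 0 were high. Over all bins with a placed start, 45.1% were in between and 35.6% low, so the values describe these 6 genes and set no group apart. Mest had 26 of 77 reads methylated (33.8%, 95% Wilson interval 24.2 to 44.9%) at chr6:30683001-30684000. Kcnq1ot1, a long non-coding RNA that silences its neighbours on the paternal copy, had 22 of 39 (56.4%, 40.98 to 70.7%) at chr7:150482001-150483000. Magel2 had 18 of 31 (58.1%, 40.8 to 73.6%) and Nap1l5 29 of 39 (74.4%, 58.9 to 85.4%). The 250 bases before the Magel2 start had 0 of 6, which allows up to 50%. Igf2, a fetal growth factor, had 1 of 61 (1.64%, 0.290 to 8.72%) at chr7:149847001-149848000. A start of Gnas had 3 of 39 (7.69%, 2.65 to 20.3%). Parental copies cannot be told apart in these counts.

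Outside the lists, starts with the most reads were taken from each class, so their place on the scale follows from the choice. Low ones included Alkbh7, a mitochondrial protein gene, with 7 of 215 reads methylated (3.26%, 95% Wilson interval 1.59 to 6.57%), and Mief2, of mitochondrial fission, with 6 of 179 (3.35%, 1.55 to 7.12%). In the middle, Etfa, of mitochondrial electron transfer, had 36 of 147 (24.5%, 18.2 to 32.0%), but 1 of 55 in the 250 bases before its start. High ones included Dgkh, a diacylglycerol kinase gene, with 91 of 100 (91.0%, 83.8 to 95.2%) and FPKM of 0.0524 and 0.0961. Nt5c2, a nucleotidase gene, had 91 of 96 (94.8%, 88.4 to 97.8%) at chr19:47044001-47045000, with 15.9 and 11.8 FPKM. Genes can have several starts, and expression cannot be assigned to one of them here.

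Genes with a low start were mostly expressed in the epiblast, and genes with a high start mostly not. Only genes with exactly 1 start in the RefSeq table were used, 2753 genes, of which 1995 had FPKM. The loss was uneven: FPKM were present for 853 of 1026 genes with a low start, 903 of 1205 in the middle class and 239 of 522 with a high start, and the shares cover genes with a value. Of 853 genes with a low start, 67.9% were at 1 FPKM or more in both libraries, with medians of 5.11 and 4.72 FPKM. Of 903 in the middle class, 39.9% were, with medians of 0.437 and 0.435. Of 239 with a high start, 5.02% (12 genes) were, and both medians were 0. Over all 9349 genes with 1 placed start, 59.7% were at 1 FPKM or more in both. The order was the same over 10 kb from dense DNA, at 67.2%, 37.1% and 4.59%. It was also the same in bins of 21 to 30 CpGs (60.5%, 32.5% and 3.92%) and of 31 to 40 (71.1%, 48.0% and 11.4%). Methylation and RNA come from embryos of different genotype and cross, and genes are not replicates, so no test was made.

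**Figure D4:**
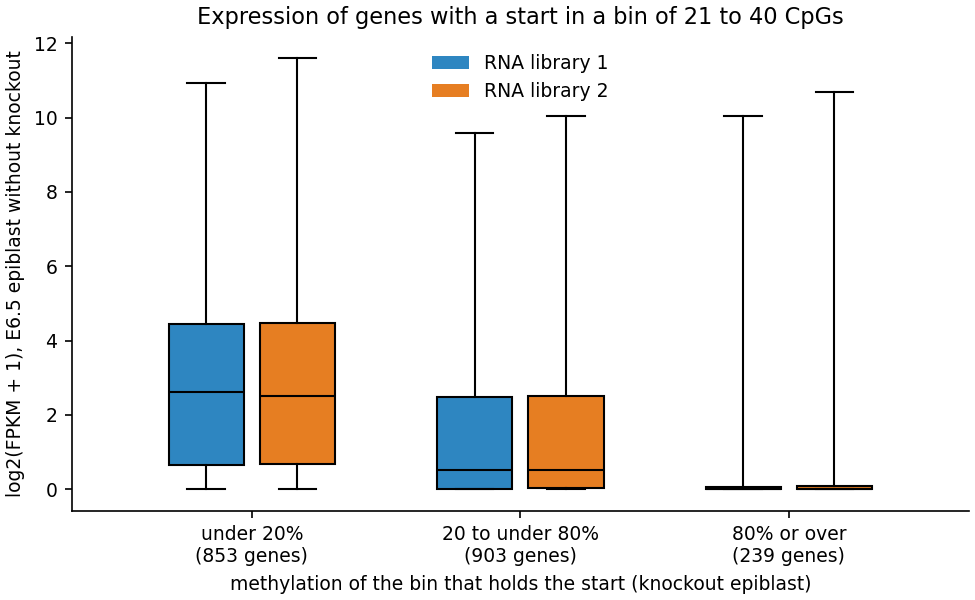
Expression as log2(FPKM + 1) in the 2 E6.5 epiblast libraries without knockout, for genes whose only start lies in a bin of 21 to 40 CpGs, by the bin's methylation in knockout epiblast (line, median; box, quartiles; whiskers, lowest and highest gene). The boxes of the 239 genes with a start at 80% or over sit near 0 in both libraries.

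The 12 expressed genes with a high start were looked at after their values were seen. Bub1b, a checkpoint kinase of mitosis, had 69.9 and 58.0 FPKM with its start bin at 81.1% (95% Wilson interval 65.8 to 90.5%) of 37 reads. Usp21, a deubiquitinase gene, had 24.6 and 27.9 FPKM with 83.3% (55.2 to 95.3%) of 12 reads. Tex19.1, of the germline list and also used in pluripotent cells, had 6.43 and 5.90 FPKM with 81.8% (65.6 to 91.4%) of 33 reads. Rpl37rt had the highest value, 1051 and 1633 FPKM, at 89.7% (76.4 to 95.9%) of 39 reads. It is a retrotransposed copy of a ribosomal protein gene, so reads of its parent cannot be kept apart from its own.

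The epiblast RNA carried its own markers. The 7 epiblast markers summed to 1076 and 1114 FPKM, and Pou5f1 alone stood at 337 and 441. Visceral endoderm markers (7 genes) summed to 2.04 and 17.5 FPKM, the second library being higher mainly at Apoa1 (12.7). Extraembryonic ectoderm markers (5 genes) summed to 10.3 and 15.4, of which Eomes, also a gene of the early streak, made 9.03 and 13.2. Of 5 maternal blood and decidua markers, the 4 with a value summed to 1.99 and 1.52 FPKM. Dcn, a matrix proteoglycan, made 1.97 and 1.504 of this, Ptprc, of blood cells, stood at 0.0188 and 0.0142, and Hbb-b1 and Prl8a2 were at 0 in both. No such check was possible for the knockout cells, which have no RNA here.

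A separate fraction of bins kept a high level at every CpG number. A bin was called recurrent when it held a run of 7 CpGs whose 6 gaps, base for base, occurred 10 or more times on the autosomes. Repeated spacing of this kind is a property of DNA present in many copies, such as transposable elements and tandem repeats, and repeat annotation was not used here. The definition was chosen after the levels had been seen. Recurrent bins without a placed start numbered 18755 (21.6%), and 37.5% of bins over 100 kb from dense DNA were of this kind. Their level was 81.6% at 21 to 25 CpGs, 82.0% at 26 to 30, 83.2% at 31 to 35 and 81.0% at 36 to 40 (range over autosomes 71.0 to 87.3%). Bins with neither a recurrent run nor a placed start stood at 79.7%, 70.3%, 55.4% and 39.3% (27.7 to 47.2%). The summed level of recurrent bins thus showed no step down with CpG number beyond the range over autosomes. Bins with neither feature and bins with a start did. The mean of recurrent bins was 85.0% at 21 to 25 CpGs and 82.4% at 36 to 40. Low ones made up 0.585% and 2.40% of recurrent bins in these classes, and 3.34% and 38.7% of bins with neither feature. Recurrent spacing was found in 3.20% of low bins and 25.8% of high bins.

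**Figure D5:**
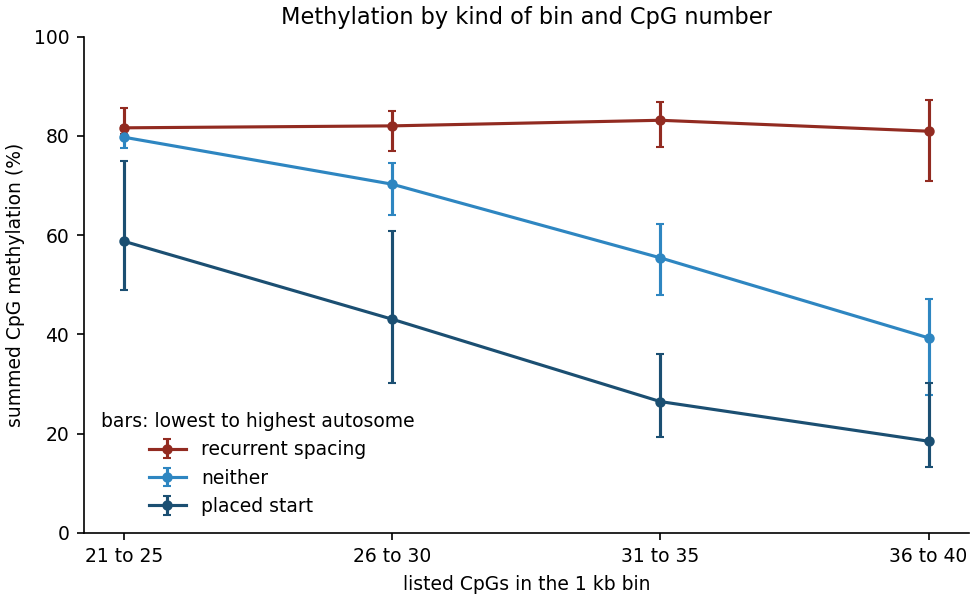
Summed CpG methylation (%) by CpG number in bins with recurrent CpG spacing, with a placed gene start, and with neither (bars, lowest to highest autosome). Recurrent bins lie between 81.0 and 83.2%, while bins with a start go from 58.8 to 18.5%.

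The kinds also differed over distance. Over 100 kb from dense DNA, bins of 36 to 40 CpGs stood at 83.0% when recurrent (1487 bins), 47.2% with neither feature (547 bins) and 20.0% with a placed start (213 bins). Recurrent bins made up 66.2% of that class and 24.98% of bins of 21 to 25 CpGs so far out. Directly beside dense DNA, recurrent bins were lower too, at 50.7% (281 bins), and reached 69.6% at 2 kb and 82.2% over 100 kb. Reads per CpG in recurrent bins were 4.03 at 21 to 25 CpGs and 0.992 at 36 to 40, against 2.25 and 1.69 in bins with neither feature. Reads that map to several places are hard to assign in such DNA, and the part of mapping in these levels was not tested.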

How the data were processed

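The authors deposited, for each CpG and strand, counts of methylated and of unmethylated reads, merged from 3 libraries. Reads were mapped to mm9 with BS-Seeker2 and bases called with CASAVA 1.8, per the submitters' processing notes. Expression was deposited as FPKM, made by the authors with TopHat2 2.0.11 and Cufflinks 2.0.2, per the same notes. How reads with several matches or duplicate reads were treated is not given in the sources used here. Zero-read CpGs are listed in the table, so CpG number does not depend on coverage, but a bin needed 5 covered CpGs.

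A level is methylated over all reads, summed over a group of bins. Distance counts 1 kb bins to the nearest bin of over 60 CpGs. Analysis used Python 3.11.15, numpy 2.4.6 and pandas 2.3.3. The binning, distance and level steps were tested on simulated reads of 1 chromosome, and the other steps were not. Depth of the RNA libraries is unknown, since FPKM hold no counts. Bins, gene lists and comparisons were chosen with earlier results of these data known, and the recurrent spacing after the levels were seen. Named genes are up to 6 per list by reads, with 20 or more reads in the bin, and starts with the most reads in each methylation class outside the lists, at a mean of at most 10 reads per CpG, with provisional symbols passed over. The text names some of these, and nothing on chromosome 18 is named. Alternatives were other coverage and read minimums, single strands, shifted bins, other limits for dense, low and high bins, a 100 bp window and 5 FPKM.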

Additional observations from a re-analysis of the deposited data

How the results depend on the processing

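The differences by CpG number, distance, level of the dense neighbour, crowding, expression and recurrent spacing kept their direction under the alternatives tried for each. The profile from the edge, the parts of single bins, the runs, the bins beside 41 to 60 CpGs, the gene lists and the starts by distance had no alternative. No paired analysis was possible because the results come from no test and the authors merged the replicates. The difference between 21 and 40 CpGs was 40.4 points. It was 41.5 without positions of over 10 reads, 45.5 in bins of 50 or more reads, 41.03 from Crick reads, 44.0 with bins shifted by 500 bp and 33.4 as a mean of bins. The difference between over 100 kb and adjacent bins was 48.6 points. In the same order it was 48.997, 50.95, 48.2, 48.8 and 46.9, with 49.4 from Watson reads, 48.0 with dense bins of over 50 CpGs and 47.7 with over 80. Adjacent bins differed by 56.8 points between methylated and unmethylated dense neighbours, and by 60.9 with limits of 10 and 90%.

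The share of low bins, 7.61%, was 4.13% with those limits, 7.96% with 10 covered CpGs and 11.4% in bins of 50 or more reads. The share of high bins, 63.0%, was 35.2% with those limits and 61.5% in bins of 50 or more reads. These shares thus moved with the limits and with the read minimum. That minimum also favours bins of more CpGs, since the median reads per bin were 40 at 21 CpGs and 52 at 40. For crowding, bins of 36 to 40 CpGs were split at the median crowding, and the classes of crowding given above had no alternative. Bins up to the median stood at 55.5% and bins above it at 37.3%, a difference of 18.2 points. It was 17.2 points with a window of 100 bp. The share of low bins among those with a start, 35.6%, was 44.9% in bins of 50 or more reads. The share of expressed genes differed by 62.9 points between low and high starts, by 45.6 at 5 FPKM, and by 62.9 to 63.5 from 1 RNA library alone.

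Recurrent bins of 36 to 40 CpGs stood 41.7 points above bins with neither feature. Under settings chosen after seeing the data the difference was 39.6 with 5 copies, 40.3 with 50 copies and 42.9 with patterns of 8 gaps. The other alternatives, among them leaving out chromosome 9, which was also chosen after seeing the data, moved the values by less than their counting intervals. At 2.08 reads per CpG a bin's level is coarse. The cause of the shifts was not tested.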
